A study of Mus musculus with 12 samples.

Results

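Glycolytic enzymes and a glucose importer were followed in thymocytes on 12 Affymetrix mouse arrays. The members were 10 genes, namely Slc2a1, Hk2, Gpi1, Aldoa, Aldoc, Gapdh, Pgk1, Eno1, Pkm and Ldha, and every probe set to which the platform's annotation gives 1 of these symbols was taken. That gave 16 of the 12488 probe sets in the table, covering 8 of the 8252 genes that the annotation names singly. No probe set was listed under Gpi1 or Eno1, so these 2 genes were not analysed here. All 6 probe sets listed for Gapdh alone are Affymetrix control probe sets, which were kept out of the tests. Of the other 10 probe sets, 9 passed the filter on dim probe sets, a geometric mean intensity above 1.76, and these 9 stand for 7 genes. A further 2 probe sets are annotated to Gapdh together with pseudogenes and are given as such.

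The arrays form 3 groups of 4. Cells carrying the OT1 T cell receptor, which recognises an ovalbumin peptide on a class I molecule, make up the group OT1, for which the labels name no peptide. Cells carrying the HY receptor, which recognises a male peptide on a class I molecule, were cultured with Smcy peptide at 1e-07 M (HY_low) or 1e-05 M (HY_high). All cells came from RTOC at day 6, a culture in which thymocytes are put back together with thymic stroma. Strain, sex and age of the mice and the source of the stroma are not given in the sources used here, nor is it stated whether arrays came from separate cultures. The p-values therefore speak of array-to-array spread, which may be technical. Titles number the arrays 1 to 4 in each group, and arrays with the same number were alike across groups in the table as a whole. HY_low and HY_high also differ in title letters that the labels do not explain, and dose cannot be told apart from what these mark. Comparisons with OT1 change the receptor as well as the peptide.

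Glycolysis turns glucose into pyruvate in the cytoplasm and yields ATP without oxygen. Slc2a1 encodes the transporter GLUT1, Hk2 a hexokinase that traps glucose as its phosphate, and Aldoa and Aldoc aldolases that split the phosphorylated sugar. Gapdh and Pgk1 carry out the oxidation and a step that yields ATP, Pkm makes pyruvate and also yields ATP, and Ldha turns pyruvate into lactate. T cells that are activated through their receptor are known to raise glycolysis, partly through the transcription factors Myc and HIF-1, whereas most small thymocytes are resting cells.

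HIF-1 is known to bind sites that hold the letters ACGTG in front of glycolytic genes, and the deposited values bear on those genes, so the promoters are shown here. The 250 bases before each transcript start were taken from RefSeq windows (GRCm38.p6), which held all 10 members in 17 windows, and were searched for ACGTG and its reverse complement CACGT. A match was present in 7 of the 17 windows and in 6 of the 10 genes (Slc2a1, Hk2, Aldoa, Pgk1, Pkm and Ldha), against 16.6% of all 32851 windows and 18.5% of all 27025 genes. Base composition and the number of windows per gene were not matched between these sets, and overlapping Aldoa windows shared the same match. A match is a description and not a binding site, and no match was found in these windows for Gpi1, Aldoc, Gapdh and Eno1. The stretches below lie before every listed start of their gene, are written 5′ to 3′ on the strand of the gene, and have the matching letters in capitals. In both stretches of Ldha the match on one strand overlaps that on the other, which spells the E-box CACGTG, the letters to which Myc binds.
Slc2a1, plus strand, chr4:119108691-119108731: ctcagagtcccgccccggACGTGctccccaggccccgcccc
Hk2, minus strand, chr6:82774658-82774698: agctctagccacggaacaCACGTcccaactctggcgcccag
Hk2, minus strand, chr6:82774484-82774524: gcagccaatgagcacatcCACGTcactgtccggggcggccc
Pgk1, plus strand, chrX:106186932-106186991: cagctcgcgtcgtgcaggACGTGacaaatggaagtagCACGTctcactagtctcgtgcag
Ldha, plus strand, chr7:46845641-46845682: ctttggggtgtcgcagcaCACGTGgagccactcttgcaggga
Ldha, plus strand, chr7:46845738-46845792: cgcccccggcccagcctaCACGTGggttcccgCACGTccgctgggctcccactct

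Values are intensities on a linear scale, group levels are geometric means, and differences are log2 with the standard error (SE) of limma. Array medians ran from 3.33 to 3.97 and the lowest value of the table is 1. Intensities of different probe sets were not compared with each other.

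The glucose importer among the members was read near the bottom of the scale. Slc2a1 had intensities of 5.44, 1.13, 1.12 and 3.90 on OT1 arrays 1 to 4. It had 1.90, 2.77, 3.73 and 1.54 in HY_low, and 8.57, 7.95, 3.83 and 1 in HY_high. The groups overlapped, with the HY_high arrays holding both the highest values and the lowest. The geometric mean was 4.02 in HY_high, beside 2.34 in HY_low and 2.28 in OT1. The log2 difference was 0.78 ± 0.69 SE between HY_high and HY_low and 0.82 ± 0.69 between HY_high and OT1 (n = 4 per group, limma adjusted p = 0.9997 and 0.9999). Only 1 of its 12 values reached 8, and with values under 8 set to 8 both differences were 0.025. With array weights they were 0.14 and 0.34. These dim values put no narrow limit on a change of GLUT1 mRNA.

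Hk2 was read by 2 probe sets. The brighter of them had 17.15, 1.22, 9.07 and 4.31 on the OT1 arrays, 2.31, 23.2, 5.36 and 2.59 on the HY_low arrays, and 1.99, 5.78, 7.82 and 9.34 on the HY_high arrays. The groups overlapped, with the highest value on a HY_low array and the lowest on an OT1 array, and the geometric means of 5.35, 5.22 and 5.38 were nearly equal. Its log2 differences lay between -0.03 and 0.04 with an SE of 0.82. The 95% interval for HY_high against OT1 ran from -1.72 to 1.74 (limma adjusted p = 0.9999). The other Hk2 probe set lay between 1 and 2.86 on all 12 arrays and was not tested.

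Aldoa, the aldolase of muscle and most other tissues, was measured by 2 probe sets of the _f_at type, which can read several members of a gene family. The brighter of them had intensities of 525, 74.3, 328 and 235 in OT1, 543, 46.3, 209 and 200.5 in HY_low, and 542, 70.8, 211 and 156 in HY_high. In all 3 groups the array numbered 1 was the highest and the array numbered 2 the lowest. The groups overlapped throughout, with geometric means of 234, 180.3 and 188. HY_low differed from OT1 by -0.38 ± 0.74 and HY_high from OT1 by -0.31 ± 0.74 (limma adjusted p = 0.99996 and 0.9999). With the number as a block the SE fell to 0.205, and the interval for HY_high against HY_low narrowed to -0.37 to 0.50.

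The dimmer Aldoa probe set ordered the arrays differently. It had 36.9, 90.6, 128 and 105 in OT1, 27.8, 46.2, 82.4 and 153 in HY_low, and 47.3, 51.2, 96.3 and 137 in HY_high. Array 1 was the lowest in every group here, whereas it was the highest on the brighter probe set. The group means were 81.9, 63.4 and 75.2, and HY_low against OT1 gave -0.37 ± 0.56 (limma adjusted p = 0.99996). Both Aldoa probe sets thus had their lowest group mean in HY_low, by a margin smaller than the spread between arrays.

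Aldoc, the aldolase isoform known from brain, was dim. It had 10.6, 1.23, 9.99 and 3.64 in OT1, 10.3, 1.83, 1.93 and 5.65 in HY_low, and 13.7, 4.20, 3.34 and 6.46 in HY_high. HY_high was higher than HY_low within 4 of 4 numbers, and the groups overlapped. The difference was 0.65 ± 0.73, or ± 0.50 with the number as a block (adjusted p = 0.9997, or 0.660 with the block), and 8 of the 12 values lay under 8. With these set to 8 the difference was 0.10.

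Gapdh, which oxidises the sugar phosphate and is often used as a loading control, was read by control probe sets placed at the 3' end, the middle and the 5' end of its mRNA. The 3' probe set had 2004.45, 1319, 1428 and 1548 in OT1, 1733, 1041, 1372 and 1403 in HY_low, and 1899.53, 1469, 1196 and 1519 in HY_high. Array 1 was the highest in each group and the groups overlapped. With the control probe sets kept in the fit, an alternative added after the data were seen, HY_low against OT1 was -0.19 ± 0.35, HY_high against OT1 -0.05 ± 0.35 and HY_high against HY_low 0.14 ± 0.35. HY_low lay below OT1 within 4 of 4 numbers.

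The middle and 5' probe sets of Gapdh spread far more between numbers. The 5' probe set ran from 17.2 on OT1 array 2 to 201 on OT1 array 4, and arrays 2 were the lowest and arrays 4 the highest in every group. The 3' over 5' ratio on the log2 scale, a measure of RNA quality, was 5.60 to 6.26 on arrays 2 and 2.95 to 3.27 on arrays 4, with 4.57 to 4.87 on arrays 1 and 4.69 to 5.48 on arrays 3. Arrays 2, with the highest ratio, were also the lowest on the brighter Aldoa probe set in every group, while arrays 1, the highest there, had a middle ratio. The 3' over middle ratio went differently, with arrays 3 the highest in each group (1.86 to 2.13) and array 1 the lowest in OT1 (0.27) and HY_low (0.40). The share of all values at the lowest value of 1 was 8.50% to 8.80% on arrays 1, 21.3% to 22.5% on arrays 3 and 20.8% to 22.4% on arrays 4, while arrays 2 were unlike each other (3.003% for HY_high, 5.18% for HY_low and 19.04% for OT1). The part of RNA quality in the members' values was not tested. The 3 probe sets whose names end in _st are designed for the other strand and lay between 1 and 13.9. The 2 probe sets that Gapdh shares with pseudogenes had group means of 790, 714 and 688 in OT1, HY_low and HY_high for the first and 7.99, 12.8 and 9.92 for the second, and did not pass in any comparison (limma adjusted p of 0.9997 or more).

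Pgk1, the enzyme of an ATP-yielding step, ordered the arrays unlike the brighter Aldoa probe set. Its intensities were 288, 509, 347 and 252 in OT1, 132, 536, 299 and 287 in HY_low, and 143, 496, 302 and 385 in HY_high. Array 2 was the highest in every group. The geometric means of 336, 279 and 301 overlapped between groups, and HY_low against OT1 was -0.27 ± 0.49 (limma adjusted p = 0.99996). With the block the interval of HY_high against HY_low ran from -0.38 to 0.60.

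Pkm, which makes pyruvate, had the largest differences of HY_high from OT1 among the members read well above the bottom of the scale. It was read by 2 probe sets. The dimmer of them was of the _f_at type, which can read several members of a gene family. On this probe set the intensities were 25.1, 32.8, 50.7 and 48.2 in OT1, 25.04, 23.8, 40.3 and 47.3 in HY_low, and 23.1, 13.6, 18.9 and 38.8 in HY_high. HY_high lay below both other groups within 4 of 4 numbers, although the groups overlapped. Its geometric mean was 21.9 in HY_high, 32.7 in HY_low and 37.7 in OT1. The difference from OT1 was -0.78 ± 0.44 SE (n = 4 per group, limma adjusted p = 0.9999) and that from HY_low -0.58 ± 0.44 (adjusted p = 0.9997). With the number as a block the SE was 0.263 and the adjusted p 0.200 and 0.434, so neither passed.

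The brighter Pkm probe set, of the _s_at type that can read several transcripts, had 302, 17.6, 73.8 and 41.5 in OT1, 139, 20.7, 52.4 and 48.3 in HY_low, and 178, 23.9, 33.1 and 21.1 in HY_high. Array 1 was the highest in all 3 groups. Here HY_high was lower than OT1 within 3 of 4 numbers and lower than HY_low within 2 of 4. The difference from OT1 was -0.61 ± 0.81, and with the block the interval ran from -1.23 to 0.00034 (adjusted p = 0.425). Neither probe set of Pkm is known from the annotation to separate the Pkm1 and Pkm2 splice forms.

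Ldha, the enzyme that makes lactate, varied least among the tested members. Its intensities were 1510.35, 1043, 981 and 745 in OT1, 1090.47, 972, 811 and 721 in HY_low, and 945, 850.5, 937 and 1019.81 in HY_high. HY_low was below OT1 within 4 of 4 numbers, and the groups overlapped. The geometric mean was 1036 in OT1, beside 887 in HY_low and 936 in HY_high. HY_low against OT1 was -0.22 ± 0.36, HY_high against OT1 -0.15 ± 0.36 and HY_high against HY_low 0.08 ± 0.36 (limma adjusted p = 0.99996, 0.9999 and 0.9997). All 3 intervals lay within a 2-fold change either way, and with the block that of HY_high against HY_low ran from 0.793-fold to 1.40-fold.

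**Figure D1:**
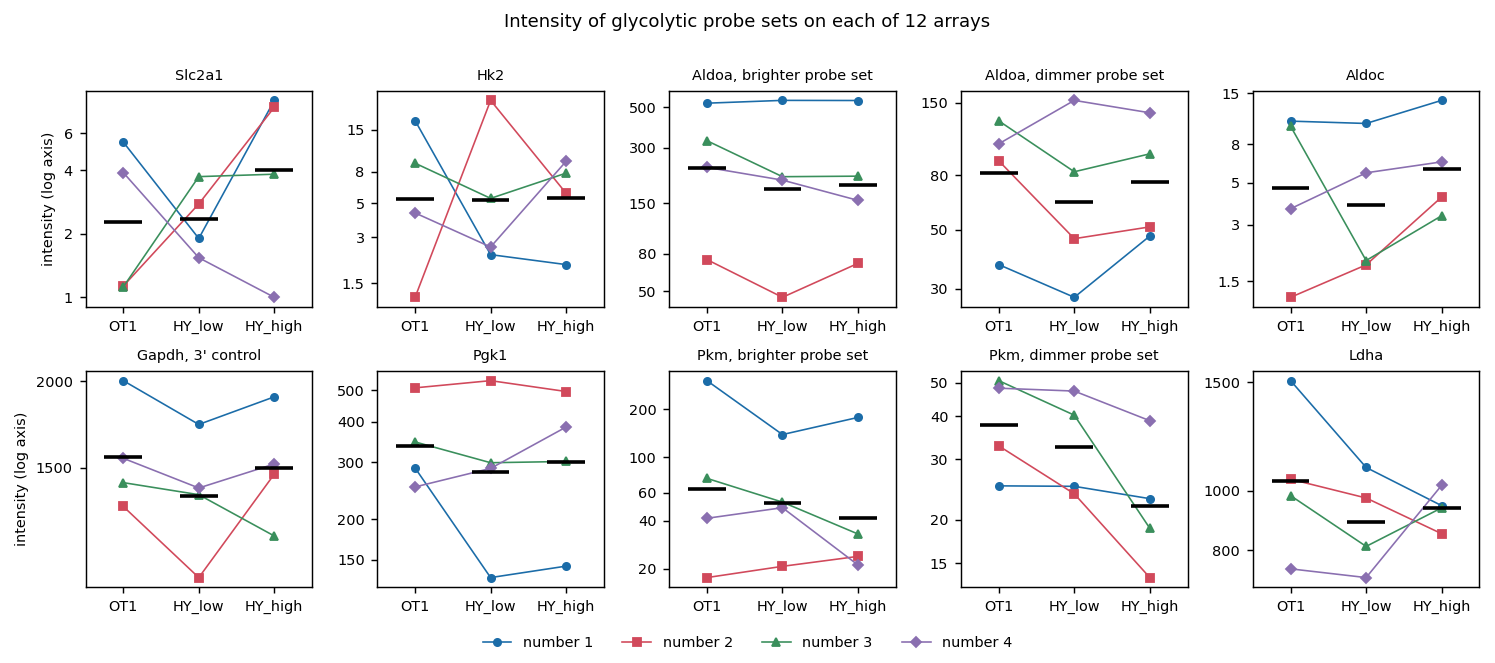
Intensity (log axis) of glycolytic probe sets in the groups OT1, HY_low and HY_high, with 1 point per array, lines that join arrays of the same title number, and black bars for the geometric mean of 4 arrays. On the brighter Aldoa probe set number 1 is the top line and number 2 the bottom line in all 3 groups, on Pgk1 number 2 is the top line, and the black bars of the groups lie close together beside these distances.

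The comparison of HY_high with HY_low keeps the receptor and changes the peptide dose together with whatever the title letters mark. The groups also differed in Cd8b1, at 4.52 in HY_high and 644 in HY_low, so their cells may not be of the same kind. Of the 9 tested member probe sets, 7 were higher and 2 lower in HY_high, from -0.58 (the dimmer Pkm probe set) to 0.78 (the dim Slc2a1), and none passed (0 of 9 by limma, smallest unadjusted p 0.208), where 0.023% of all 8695 tested probe sets did and 2.96% had an unadjusted p under 0.05. With the number as a block again 0 of 9 passed, where 0.345% of all did, and 1 had an unadjusted p under 0.05 (the dimmer Pkm probe set), where 11.1% of all did. The groups overlapped on all 9, where 2.02% of all tested probe sets did not overlap. Taking the brightest probe set of each of the 7 genes, the median difference was 0.08, with 0.12, 0.21, 0.04 and 0.19 within numbers 1 to 4. The median of all tested probe sets was 0.01.

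The comparison of HY_low with OT1 changes receptor and peptide together. Here 8 of the 9 member probe sets were lower in HY_low and 1 was higher, over a narrow range from -0.38 (the brighter Aldoa probe set) to 0.04 (Slc2a1). None passed (0 of 9 by limma, and 0 at an unadjusted p of 0.05), where 0.023% of all tested probe sets passed and 2.65% had an unadjusted p under 0.05. With the block 0 of 9 passed, where 0.092% of all did, and 0 had an unadjusted p under 0.05, where 8.37% of all did. The groups overlapped on all 9, where 1.63% of all did not overlap. The median over 7 genes was -0.27, beside 0.01 for all tested probe sets, but within numbers 1 to 4 it was -1.12, 0.23, -0.49 and -0.05, so its sign was not the same in all numbers. The probe sets lower in HY_low within 4 of 4 numbers were that of Ldha and the dimmer Pkm probe set.

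The comparison of HY_high with OT1 uses the same OT1 arrays. Of the 9 member probe sets 6 were lower and 3 higher in HY_high, from -0.78 (the dimmer Pkm probe set) to 0.82 (the dim Slc2a1). None passed (0 of 9 by limma, smallest unadjusted p 0.0929), where 0.173% of all tested probe sets did and 4.08% had an unadjusted p under 0.05, and with the block 0 of 9 passed, where 1.36% of all did. With the block 1 had an unadjusted p under 0.05 (the dimmer Pkm probe set), where 11.7% of all did. The groups overlapped on all 9, where 2.53% of all did not overlap. The median over 7 genes was -0.15, with -0.68, 0.44, -0.21 and 0.45 within the numbers, and that of all tested probe sets was 0.02. It was 0.14 without OT1 array 1 and 0.030 with array weights, so its sign was not kept.

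**Figure D2:**
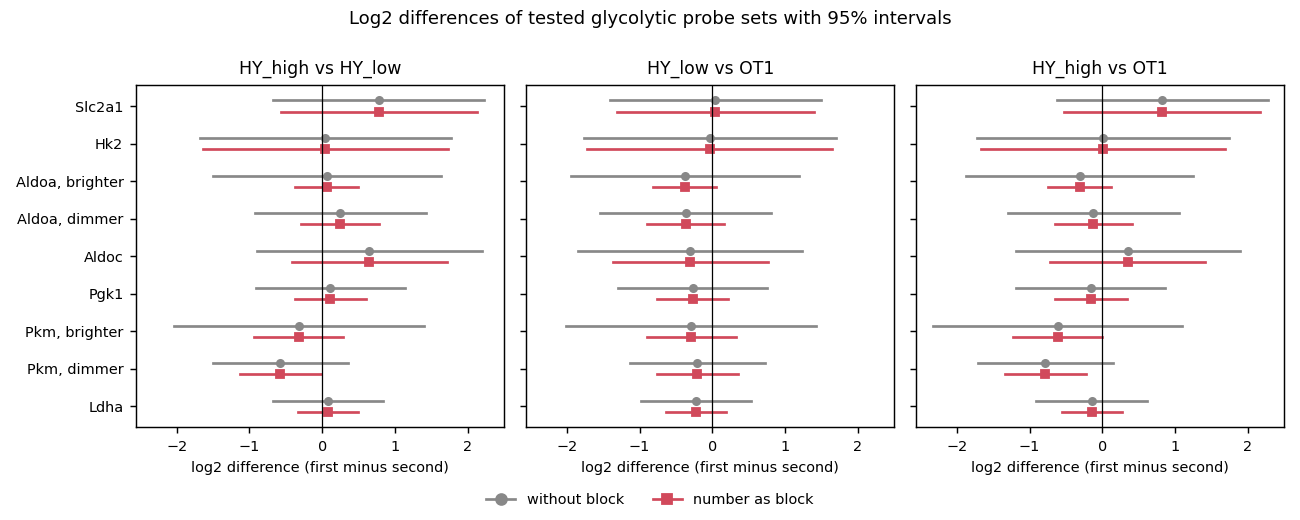
Log2 differences of the 9 tested member probe sets in 3 comparisons, with 95% intervals of limma without a block (grey circles) and with the title number as a block (red squares). The 2 intervals of the same probe set share their centre, and that of the brighter Aldoa probe set is 3.62 times narrower in SE with the block, while that of Hk2 hardly changes.

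How firmly a change can be bounded differed between the members. The SE of a difference was 0.360 to 0.819 without the block and 0.194 to 0.796 with it. In HY_low against OT1, the 95% interval lay within a 2-fold change either way on 1 of 9 probe sets without the block and on 6 with it. In HY_high against HY_low these numbers were 1 and 5, and in HY_high against OT1 they were 1 and 4. An adjusted p that misses the threshold does not show equal levels, and for Slc2a1, Hk2 and Aldoc the intervals reach beyond 2-fold in every comparison.

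The members spread more between title numbers than between groups. The share of the sum of squares of log2 intensity that lay between numbers was larger than that between groups on 9 of 9 tested member probe sets, which also held for 84.0% of all tested probe sets, and it was over 50% on 5 of the 9. With 4 numbers and 3 groups, the share between numbers would tend to be the larger even without an effect of the number. The gap was small for Slc2a1 (19.8% beside 13.0%) and Hk2 (5.44% beside 0.023%). On the brighter Aldoa probe set 95.2% lay between numbers and 2.10% between groups, and the geometric mean over the 3 groups was 537 on arrays 1 and 62.5 on arrays 2, an 8.59-fold range. On the brighter Pkm probe set 88.6% lay between numbers, with 195 on arrays 1 and 20.6 on arrays 2, a 9.48-fold range. Pgk1 had 78.3% between numbers, with 514 on arrays 2 and 176 on arrays 1, and so ran the other way. For all tested probe sets the median share was 52.8% between numbers and 10.7% between groups.

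The dimmer Pkm probe set had the largest share between groups of the tested members, 33.3%, beside 49.2% between numbers. Ldha had 11.7% between groups and 45.4% between numbers, over a range of 1.42-fold between numbers. Hk2 had 0.023% between groups and 5.44% between numbers, so that 94.5% of its spread followed neither. Slc2a1 had 13.0% and 19.8%. Aldoc and the second Aldoa probe set had 64.6% and 83.2% between numbers.

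**Figure D3:**
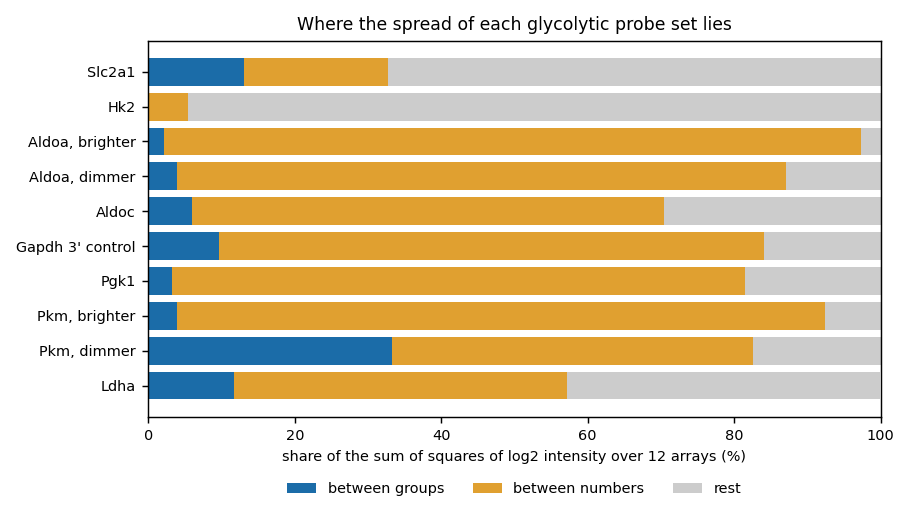
Share (%) of the sum of squares of log2 intensity over 12 arrays that lay between groups (blue), between title numbers (orange) and in the rest (grey), for the tested member probe sets and the 3' Gapdh control. Orange exceeds blue on every bar, and the largest blue share is the 33.3% of the dimmer Pkm probe set.

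The other steps of the pathway also held no called gene. Of 19 further glycolysis genes 15 had a probe set and 10 were tested. None passed in any of the 3 comparisons with limma, with or without the block. An unadjusted p under 0.05 in any of the 3 comparisons was reached by 1 gene without the block (Ldhb) and by 3 with it (Tpi1, Eno3 and Ldhb). Of all tested probe sets, 2.65% to 4.08% reached it in each single comparison without the block, and 8.37% to 11.7% with it. Tpi1, which interconverts the products of aldolase, had 87.9, 66.1, 109.93 and 134 in OT1, 53.2, 27.6, 41.5 and 105 in HY_low, and 97.9, 86.4, 52.4 and 131 in HY_high. HY_low lay below both other groups within 4 of 4 numbers, and the groups overlapped. HY_low differed from OT1 by -0.94 ± 0.46 (limma adjusted p = 0.99996; blocked, 0.238), and HY_high from HY_low by 0.80 ± 0.46 (0.9997; blocked, 0.268). Eno3, an enolase of muscle, had 0.88 ± 0.46 in HY_high against OT1, higher within 4 of 4 numbers (adjusted p = 0.9999, or 0.246 with the block). Ldhb, the lactate dehydrogenase chain of heart, was dim at 3.17 in OT1 and 8.60 in HY_low, which came to 1.44 ± 0.62 (adjusted p = 0.99996; blocked, 0.404), or to 0.33 with values under 8 set to 8. The median over the 10 genes was 0.24 in HY_high against HY_low, -0.20 in HY_low against OT1 and 0.23 in HY_high against OT1.

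Of 7 transporters of sugar and lactate 6 had a probe set and 4 were tested, and none passed with limma, with or without the block (0 at an unadjusted p of 0.05 without it). Bsg, the chaperone of lactate transporters, had 0.81 ± 0.61 in HY_low against OT1, or 0.023 with values under 8 set to 8. Slc16a1, a lactate transporter, had -0.47 ± 0.47 in HY_high against OT1, and Slc2a4, the insulin-responsive glucose transporter, 0.28 ± 0.50 in HY_high against HY_low. The highest values of Slc16a1 and Slc2a4 were 3.88 and 3.01, near the bottom of the scale.

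Of 14 regulators 10 had a probe set and 8 were tested, and none passed with limma, with or without the block. An unadjusted p under 0.05 in any comparison was reached by 0 without the block and by 3 with it. With the block 8.37% to 11.7% of all tested probe sets reached it in each single comparison. Pdk1, a kinase that inhibits pyruvate dehydrogenase, had 36.5, 245, 90.07 and 53.7 in OT1. It had 15.6, 48.2, 56.5 and 42.8 in HY_low, and 28.4, 66.3, 48.8 and 57.8 in HY_high. HY_low was below OT1 within 4 of 4 numbers, while OT1 array 2 stood far above the rest. HY_low differed from OT1 by -1.14 ± 0.57 (limma adjusted p = 0.99996; blocked, 0.207), or by -0.61 without OT1 array 2. Egln1, a prolyl hydroxylase that marks HIF-1 alpha for degradation, had -0.63 ± 0.41 in the same comparison, also lower within 4 of 4 numbers. Myc, a transcription factor that drives growth, had a geometric mean of 5.52 in OT1, beside 7.29 in HY_low and 9.29 in HY_high. HY_high exceeded OT1 by 0.75 ± 0.54, which did not pass (adjusted p = 0.9999, or 0.468 with the block), and by 0.068 with values under 8 set to 8. Hif1a, the oxygen-regulated subunit of HIF-1 and not among the genes the rule named, was added after its values were seen, on an _f_at probe set. Its geometric mean was 198 for OT1, beside 313 for HY_low and 351 for HY_high, and both HY groups were above OT1 within 4 of 4 numbers. The differences from OT1 were 0.66 ± 1.01 and 0.83 ± 1.01 and did not pass (limma adjusted p = 0.99996 and 0.9999; blocked, 0.468 and 0.154).

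The lists for pyruvate dehydrogenase and for the pentose phosphate route, which makes NADPH and ribose, had 4 and 6 tested genes of 7 each. None of them passed with limma, with or without the block. An unadjusted p under 0.05 in any comparison was reached by 0 without the block, and with it by 0 and 3. With the block 8.37% to 11.7% of all tested probe sets reached it in each single comparison. The 4 genes of the pyruvate dehydrogenase complex had a median of -0.37 in HY_low against OT1 and of 0.08 in HY_high against HY_low, with Pdha1 at -0.0026 and 0.0056. Taldo1, a transaldolase, was lower in HY_high than in OT1 within 4 of 4 numbers, at 32.6 beside 53.2 and a log2 value of -0.71 ± 0.46 against it (limma adjusted p = 0.9999; blocked, 0.154). Pgls, a lactonase of the same route, had -0.78 ± 0.48 in HY_high against HY_low and was lower within 4 of 4 numbers. Rpe, an epimerase, had 1.26 ± 0.77 there, or -0.039 with values under 8 set to 8. Pdhb and Dld, parts of the pyruvate dehydrogenase complex, had -0.50 ± 0.59 and -0.35 ± 0.80 in HY_low against OT1, and Dlat had 0.40 ± 0.52 in HY_high against HY_low on its brighter probe set and -0.03 on the other.

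Genes known to be induced by low oxygen were examined because several glycolytic genes are known to belong to them. Of 12 such genes 7 were tested. None passed without the block. In that fit 1 had an unadjusted p under 0.05 in each comparison with OT1, beside 2.65% (HY_low) and 4.08% (HY_high) of all tested probe sets. With the block 1 passed, lower in HY_high than in OT1, where 0.23% of all tested probe sets were called lower. This was Ndrg1, a stress-responsive gene, with 9.77, 48.6, 16.9 and 31.1 in OT1, 2.80, 8.51, 8.04 and 14.6 in HY_low, and 2.19, 10.9, 9.21 and 19.2 in HY_high. Both HY groups lay below OT1 within 4 of 4 numbers, with overlap. The difference of HY_high was -1.47 ± 0.68 SE (n = 4 per group; limma adjusted p = 0.9999 unblocked and 0.0419 blocked), and that of HY_low -1.62 ± 0.68 (0.99996, or 0.113 with the block). Its dimmer probe set gave -0.46 for HY_high and -1.08 for HY_low against OT1, which did not pass (adjusted p = 0.715 and 0.437 with the block). The call for HY_high did not hold in 10 of 12 blocked fits that each left out 1 array, chosen after the data were seen, where the adjusted p ran from 0.0371 to 0.167 (without OT1 array 2) and the call held only without HY_low array 1 or 2. Without the block, the difference of HY_high ran from -1.89 (without HY_high array 4) to -0.85 (without HY_high array 1). Ddit4, an inhibitor of the growth kinase mTORC1, went the other way, at 0.87 ± 0.49 in HY_high against OT1 (adjusted p = 0.9999, or 0.0749 with the block), higher within 4 of 4 numbers. P4ha2, an enzyme of collagen maturation, had 0.94 ± 0.52 there on its brighter probe set and -0.88 on the other. The median of the 7 tested genes was -0.59 in HY_high against OT1, with 3 higher and 4 lower, beside 0.02 for all tested probe sets.

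**Figure D4:**
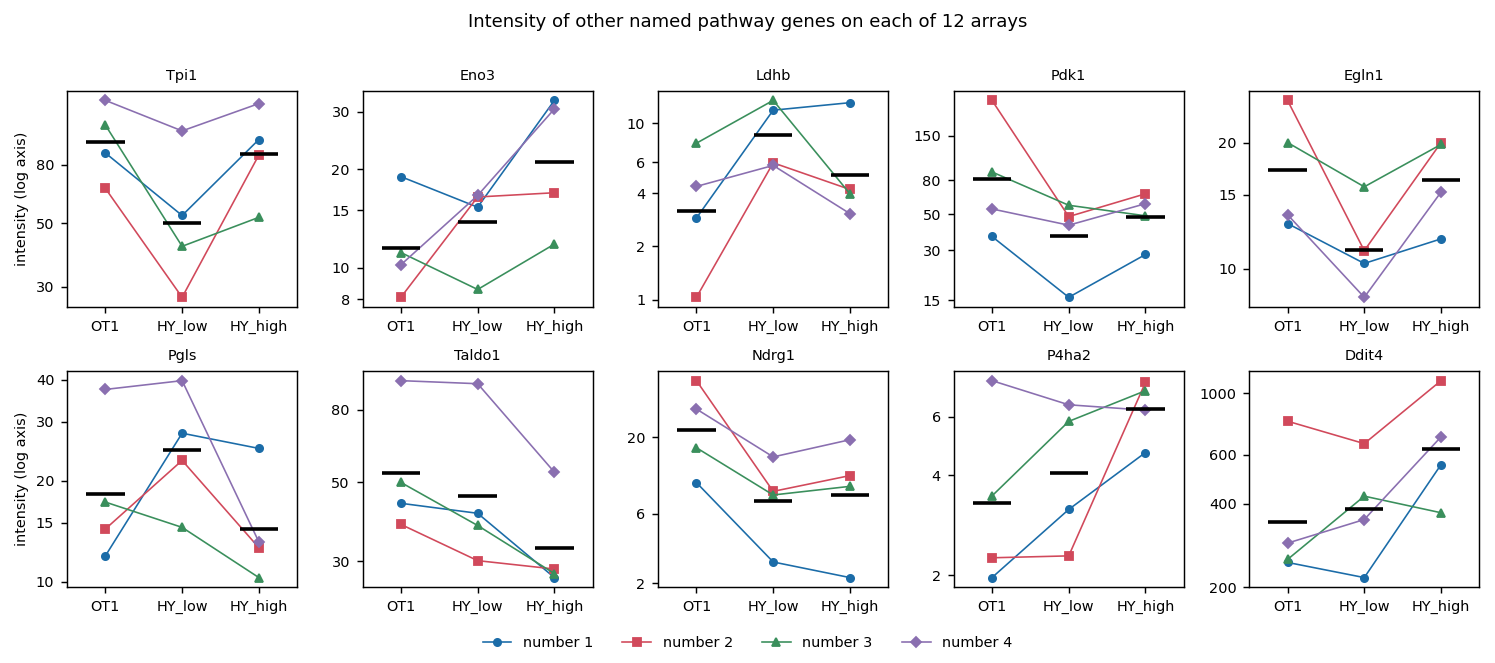
Intensity (log axis) on each of 12 arrays of the genes from the further pathway lists that the naming rule took and that had an unadjusted p under 0.05 in a comparison in either fit, drawn as in the plot of members. Tpi1 dips in HY_low on all 4 numbers, and Ndrg1 is lower in HY_low and HY_high than in OT1 on all 4 numbers.

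The cells were checked against markers. Of 11 T cell markers 10 had a probe set and all these were tested, and their summed intensity was 2529 to 3075 in OT1, 2448 to 3745 in HY_low and 1114 to 2153 in HY_high. Here Cd8b1, the CD8 beta chain, was called in both comparisons of HY_high, at 693 in OT1, 644 in HY_low and 4.52 in HY_high (limma adjusted p = 6.8e-05 against OT1 and 0.000252 against HY_low). With the block Thy1, a T cell surface marker, was also lower in HY_high, at 234 beside 541 in OT1 and 555 in HY_low (adjusted p = 0.00564 and 0.0126). Thy1 stayed called against OT1 in 12 of 12 blocked fits without 1 array, and against HY_low in 8 of 12, with an adjusted p of up to 0.0998 (without HY_low array 4). Cd8a had 157 in HY_high beside 340 in OT1 and 339 in HY_low and was not called (adjusted p = 0.0926 and 0.162 with the block). The T cell receptor chains Cd3d, Cd3e and Cd3g had 98.3, 48.04 and 231 in HY_high beside 87.3, 41.5 and 184 in OT1 and 101, 57.2 and 273 in HY_low. These chains thus lay above OT1 but below HY_low. Of the 10 tested T cell markers, 7 were lower and 3 higher in HY_high than in OT1. Against HY_low, 8 were lower and 2 higher. Summed markers of macrophages and dendritic cells (10 genes measured) were at 23.6 to 34.6, 26.7 to 63.2 and 29.1 to 39.5 in the same order, those of thymic epithelium (5 genes) at 6.92 to 12.9, 7.38 to 15.1 and 7.65 to 23.5, and those of fibroblasts (6 genes) at 43.3 to 67.7, 43.6 to 79.3 and 38.2 to 65.1. B cell markers (5 genes) were at 88.9 to 1006, 77.6 to 628 and 157 to 522, erythroid markers (3 genes) at 5.97 to 14.3, 5.48 to 18.9 and 6.62 to 17.1, and endothelial markers (4 genes) at 10.7 to 23.9, 9.84 to 19.1 and 12.5 to 24.6. The B cell sum rested on Ighm, at 59.4 to 987 over the 12 arrays. The highest values of Cd79a, Ms4a1, Pax5 and Cd79b were 6.06, 9.77, 11.25 and 42.9. NK cell markers (3 genes) were at 48.9 to 210.1 in OT1, 13.6 to 119 in HY_low and 94.6 to 323 in HY_high. Among them Klrd1, a receptor chain of NK cells and some T cells, had 198 in HY_high beside 42.9 in HY_low. The difference was 2.21 ± 0.68, higher within 4 of 4 numbers but not called (limma adjusted p = 0.9997, or 0.0958 with the block). Klrd1 ran from 8.75 to 317 over the 12 arrays and Gzma from 1.77 to 6.08, so the NK cell sum rested on Klrd1. Of 11 tested cell cycle genes none passed with limma, with or without the block (0 at an unadjusted p of 0.05 without it), and their medians were -0.21 in HY_low against OT1 and -0.09 in HY_high against OT1. The part of other cell types and of cycling cells in the glycolytic values was not tested, and in these bulk samples fewer cells of a type and less RNA per cell cannot be told apart.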

How the data were processed

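The deposited table holds intensities of 12488 probe sets on 12 arrays, on a linear scale; no source used here states how the authors corrected, summarised or scaled these intensities. No further scaling was applied. Values were put on a log2 scale, 66 control probe sets were left out, and probe sets with a mean above the 30th percentile were tested, 8695 in number. Genes were taken from the platform's annotation, with symbols updated by gene ID for 10817 of 10833 probe sets with 1 symbol; 396 had several and 1193 none. No genome was given for the probe sets. Promoter sequences are RefSeq's (GRCm38.p6).

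One fit of limma 3.58.1 (R 4.3.3) over all 12 arrays held a mean for each group (9 residual degrees of freedom), with a trend in the variance, two-sided tests, and p-values adjusted over all tested probe sets by Benjamini and Hochberg, called at 0.05. It was checked on simulated data with independent noise on each array and no effect of the title number. That check therefore does not cover the likeness of arrays with the same number. The members and the lists were chosen with earlier results of these data known.

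Deviations from the group means correlated at 0.341 to 0.593 between the 12 pairs of arrays with the same number in different groups, and at -0.40 to 0.163 between the 36 other pairs. The numbers were therefore taken to pair the arrays, from the data and not from a statement in the labels. A blocked fit, which adds a term for the number and leaves 6 residual degrees of freedom, was run beside it, and its value is given where it bears on a call. All members were named. Of each further pathway list, the 3 genes with the smallest unadjusted p in any comparison were named, each gene by its brightest tested probe set.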

Additional observations from a re-analysis of the deposited data

Results flagged for a closer look

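The 5' control probe set of Gapdh for the other strand, near the bottom of the scale, had 5.05 on HY_low array 4, while the other 3 arrays of that group lay between 1.34 and 1.64. On the log2 scale, its gap to the nearest of these was 0.848 of the group's range. Array 4 was also the highest in OT1 (5.16) and HY_high (3.82), and 74.5% of the spread of this probe set lay between title numbers, so the high value went with the number and was not particular to this array. Of 54 sets of 4 arrays, over all member probe sets and groups, this was the 1 with such a gap. Chance gives about 1 in 20 for independent arrays, a rate that does not allow for the shared numbers.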

How the results depend on the processing

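The paired analysis, with the array number as a replicate block, called 30 probe sets in HY_high against HY_low, 8 in HY_low against OT1 and 118 in HY_high against OT1, against 2, 2 and 15 without the block, and no member in either. It moved Ndrg1 in HY_high against OT1 past the threshold, at -1.47, and changed no other call named in the text except that of Thy1. Of the member probe sets 0 passed under all 20 alternatives run (lowest adjusted p 0.200). Of 540 member values under these alternatives, 480 kept their direction, 59 changed it and 1 was 0. With no filter 0 probe sets were called in HY_high against HY_low and 9 in HY_high against OT1. With intensities under 8 set to 8, a choice made with earlier results known, they were 4 and 8. Scaling arrays to one median gave 1 in HY_high against HY_low. Array weights gave 7, 4 and 64 in the order above, and a member median of 0.18 in HY_high against HY_low. Without 1 replicate the calls in HY_high against HY_low ran from 1 to 4 (4 without HY_low array 1, and 1 without any of OT1 arrays 3 and 4, HY_low arrays 2 to 4 or the HY_high arrays) and those in HY_high against OT1 from 6 to 17 (6 without OT1 array 2 or HY_high array 3, 7 without OT1 array 4 or HY_high array 2, 9 without OT1 array 3 or HY_high array 4). The member median in HY_high against HY_low then ran from 0.036 to 0.30, and that in HY_low against OT1 from -0.74 to 0.095, the last without OT1 array 1. That in HY_high against OT1 ran from -0.30 to 0.14, the last also without OT1 array 1, and was 0.030 with array weights. In HY_high against HY_low, the differences that turned sign were those of Hk2 (-0.33 with the floor of 8 and -0.0054 with one median), the brighter Aldoa probe set (-0.16 with weights) and Rpe (-0.039 with the floor). In HY_low against OT1 they were those of Slc2a1 (-0.050 with quantile normalization, and no difference, 0, with the floor) and Hk2 (0.064 with the floor). In HY_high against OT1 they were those of Hk2 (-0.26 with the floor, -0.063 with quantile normalization and -0.027 with one median), and with weights those of Aldoc (-0.15), Pgk1 (0.10) and Ldha (0.030). Without 1 replicate, further differences crossed 0. In HY_high against HY_low these ran from -0.59 to 0.59 (Aldoa, brighter probe set), -0.15 to 0.67 (Aldoa, dimmer probe set), -0.25 to 0.47 (Pgk1), -0.35 to 0.76 (Hk2), -1.02 to 0.15 (Pkm, brighter probe set) and -0.023 to 0.18 (Ldha). In HY_low against OT1 they ran from -0.93 to 0.28 (Aldoa, brighter probe set), -0.79 to 0.028 (Aldoa, dimmer probe set), -0.94 to 0.095 (Aldoc), -0.58 to 0.092 (Pgk1), -0.30 to 0.46 (Slc2a1), -0.75 to 0.53 (Hk2), -0.91 to 0.46 (Pkm, brighter probe set) and -0.96 to 0.063 (Dld). In HY_high against OT1 they ran from -0.87 to 0.16 (Aldoa, brighter probe set), -0.51 to 0.10 (Aldoa, dimmer probe set), -0.30 to 0.74 (Aldoc), -0.40 to 0.20 (Pgk1), -0.70 to 0.57 (Hk2), -1.31 to 0.14 (Pkm, brighter probe set) and -0.30 to 0.035 (Ldha). The cause was not tested. Slc2a1, Hk2 and Aldoc lie near the bottom of the scale, and 4 arrays a group limit the precision. With the floor, differences of these and other dim genes came near 0, as given beside Slc2a1, Aldoc, Ldhb, Bsg and Myc.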

Other observations

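Over the 12 arrays, the tested genes whose log2 intensity was most like the mean standardised profile of the 7 member genes were Prpf6, a splicing factor (r = 0.874), Vav1, an exchange factor that acts below the T cell receptor (0.871), Adi1, an enzyme of methionine salvage (0.862), Ddx47, an RNA helicase (0.860), and Urod, an enzyme of haem synthesis (0.859). The median over 7599 candidate probe sets was -0.02 and their 95th percentile 0.62. The members themselves ran from -0.34 for Pgk1 to 0.798 for Pkm, so Pgk1 did not share the profile. Each member is part of the mean profile, which raises its value, so these values cannot be set against those of the candidates. The mean profile stood highest on OT1 array 1 (1.22) and lowest on OT1 array 2 (-0.76), with all other arrays between -0.42 and 0.37. The correlations therefore lean on OT1 array 1. All points share the 12 arrays, the title numbers and the scaling, and these correlations are a description.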
